A study of Mus musculus with 5 samples.

Results

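Transcripts of the interferon response and of class I antigen presentation were examined in the fetal mouse colon at stage E18.5, in 3 HNF4 null and 2 control colons with 1 array each. The set held 41 genes known as interferon-induced genes, as factors of the interferon response or as parts of class I presentation, taken by their symbols. Of these, 38 were measured by 66 probe sets that the platform annotation pairs with a single symbol, out of 12393 genes and 22626 probe sets tested in all. Isg15 and H2-T23 were present only on probe sets shared with another gene, Xaf1 had no probe set under its symbol, and none of the 3 is given a value here. The HNF4 null colons (null_59, null_60 and null_426) were HNF4LoxP/LoxP FoxA3Cre. The controls (CONTROL_406 and CONTROL_421) were HNF4LoxP/+ FoxA3Cre, so all 5 carried the Cre transgene and at least 1 floxed allele, and no colon without Cre or without a floxed allele was analysed here. FoxA3Cre takes its name from Foxa3, which is active in endoderm, the layer that forms the gut epithelium, whereas the muscle, vessels and blood cells of the gut wall arise from other layers. The labels name the floxed gene only as HNF4, a nuclear receptor of gut epithelium, liver and kidney. They give each colon its own number but do not state litters, and the p-values measure spread between these 5 samples, part of which may be technical.

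Interferons are secreted proteins that bind cell surface receptors and, through Janus kinases, activate transcription factors. Type I and type III interferons act mainly through a complex that includes STAT2 and IRF9 and binds the interferon-stimulated response element, and interferon gamma acts mainly through the gamma-activated site. The induced genes include RNA sensors, antiviral enzymes, the ubiquitin-like protein ISG15 with its machinery, and the parts of class I presentation: immunoproteasome subunits cut proteins, the TAP transporter carries the peptides into the endoplasmic reticulum, tapasin loads them, and the class I heavy chain bound to beta-2 microglobulin shows them at the surface. Many of these genes are also expressed at a basal level without infection.

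Promoter windows are given for 4 members with the response element and for Irf8, whose probe set had the smallest p of the set. RefSeq windows (GRCm38.p6) of 250 bases before and 50 after the annotated start were given for 34 of the 41 members, and Usp18, Rtp4, Mx1, Mx2, Oas2, Parp14 and Tap2 are named only. The core of the interferon-stimulated response element was searched as GAAANNGAAA on both strands, and the gamma-activated site as TTCNNNGAA, which reads the same on both strands. The response element core was found in 15 of the 34 members (44.1%), against 3.99% of all 27018 genes with a window. The gamma-activated site was found in 10 of the 34 (29.4%), against 9.55% of all genes, and 2 of the 23 response element matches in members overlapped a gamma-activated site. A match describes letters in the window and is not evidence of binding. In the following windows, written 5′ to 3′ on the gene's strand, capitals mark the response element core in Ifitm3 (chr7:141010695-141010994, minus strand), Bst2 (chr8:71537423-71537722, minus strand), Gbp3 (chr3:142559794-142560093, plus strand) and B2m (chr2:122147437-122147736, plus strand), and the gamma-activated site in Irf8 (chr8:120736108-120736407, plus strand). Each of Bst2 and Gbp3 holds 2 overlapping matches that read as a single run, in Gbp3 on the opposite strand, whereas the 2 matches of Ifitm3 lie apart, just after the annotated start.
Ifitm3: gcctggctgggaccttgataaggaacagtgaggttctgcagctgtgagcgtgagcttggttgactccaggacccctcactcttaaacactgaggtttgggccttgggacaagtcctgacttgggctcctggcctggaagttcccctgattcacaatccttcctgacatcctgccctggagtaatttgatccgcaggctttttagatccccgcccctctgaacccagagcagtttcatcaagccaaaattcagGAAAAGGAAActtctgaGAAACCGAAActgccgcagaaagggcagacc
Bst2: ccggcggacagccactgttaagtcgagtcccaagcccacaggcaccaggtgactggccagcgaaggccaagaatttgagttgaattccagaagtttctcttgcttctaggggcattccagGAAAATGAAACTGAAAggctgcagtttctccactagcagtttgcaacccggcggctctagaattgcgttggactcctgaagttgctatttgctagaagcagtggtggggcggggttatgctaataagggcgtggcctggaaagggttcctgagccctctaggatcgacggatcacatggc
Gbp3: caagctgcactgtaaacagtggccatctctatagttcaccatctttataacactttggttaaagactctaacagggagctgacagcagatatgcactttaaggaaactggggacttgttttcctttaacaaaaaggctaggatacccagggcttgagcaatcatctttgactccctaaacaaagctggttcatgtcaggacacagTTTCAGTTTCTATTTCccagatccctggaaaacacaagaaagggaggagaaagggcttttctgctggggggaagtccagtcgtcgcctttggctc
B2m: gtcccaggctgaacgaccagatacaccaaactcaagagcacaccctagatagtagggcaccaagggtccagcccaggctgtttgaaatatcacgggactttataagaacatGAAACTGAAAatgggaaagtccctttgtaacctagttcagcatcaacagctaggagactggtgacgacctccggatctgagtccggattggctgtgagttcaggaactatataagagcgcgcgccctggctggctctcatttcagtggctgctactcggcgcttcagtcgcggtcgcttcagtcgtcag
Irf8: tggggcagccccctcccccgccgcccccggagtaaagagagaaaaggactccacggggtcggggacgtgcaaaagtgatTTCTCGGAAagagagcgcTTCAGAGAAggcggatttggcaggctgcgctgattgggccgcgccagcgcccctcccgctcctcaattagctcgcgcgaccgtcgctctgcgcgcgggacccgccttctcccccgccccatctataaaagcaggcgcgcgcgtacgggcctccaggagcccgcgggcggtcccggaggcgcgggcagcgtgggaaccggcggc

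The arrays were comparable in brightness, with median intensities of 129.9 to 135.2 in HNF4 null and 123.7 to 131.6 in control colons. Gapdh signal at the 3′ end over that at the 5′ end, which bears on RNA length, was 0.794 to 0.895 in HNF4 null colons, 0.767 in CONTROL_406 and 1.47 in CONTROL_421. By its brightest probe set Hnf4a read 650, 746 and 722.5 in HNF4 null colons, against 945 and 991 in control colons (log2 difference -0.35 ± 0.17 SE, limma adjusted p = 0.719). Its other 3 probe sets differed by -0.55, 0.14 and 0.19, and the labels do not say whether the probes lie in the floxed part. Of 13 measured markers of the colonic epithelium, 11 lay lower in HNF4 null colons, whereas 53.6% of all genes had a positive difference. At an unadjusted limma p under 0.05, 6 were lower (background 4.28% of genes), and 0 had an adjusted p under 0.05. The 6 lower markers were Car1, Cdh17, Cdx1, Epcam, Krt20 and Vil1, with log2 differences of -0.50 to -0.87. Epcam, Krt8 and Tff3 were bright in all 5 arrays, and Krt8 and Tff3 differed by only -0.15 and -0.06. The 2 markers with a positive difference, Krt18 and Krt19, differed by 0.29 and 0.14. The summed intensity of the 13 markers was 16340 to 19680 in HNF4 null and 20690 to 21380 in control colons. The epithelial markers as a group thus lay lower in HNF4 null colons beside every result below, and their part in those results was not tested. In bulk tissue, fewer cells of a type and less RNA per cell cannot be told apart.

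As a group, the interferon and class I genes of HNF4 null colons lay close to those of control colons. Differences between genotypes were mostly no larger than the gap between the 2 control colons, as they were over all probe sets. They exceeded that gap in 31.8% of member probe sets, against a background of 39.9%. Values were compared as log2(intensity + 16) after quantile normalisation, which understates differences of dim probe sets, and every log2 difference below is HNF4 null minus control on this scale. Of the 66 member probe sets, 0 passed limma's threshold (adjusted p under 0.05 over all probe sets, background 0.124%, with 0.0177% higher and 0.106% lower), and the smallest adjusted p was 0.578. At an unadjusted p under 0.05, 4 were higher in HNF4 null colons (Ifitm3, Irf3, Rtp4 and Usp18, 6.06% of the set against a background of 2.82%) and 1 was lower (Irf8, 1.52% against 4.33%). The median difference over the 66 probe sets was 0.04, beside 0.02 over all probe sets tested, and the range was -0.51 to 0.67. The difference was positive in 40 of the 66 (60.6%, background 52.9%). On this scale the 95% interval lay within 2-fold in either direction for 64 of the 66 (97.0%, background 93.4%). The exceptions were Ifitm3 and 1 of the 9 probe sets of H2-D1. The added 16 narrows the intervals of dim probe sets, and 35 of the 66 averaged below the median of all probe sets. For dim members the intervals therefore do not bound the fold difference in intensity itself.

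In these genes the 2 control colons were themselves apart, by more at the median than over all probe sets. The absolute gap between CONTROL_421 and CONTROL_406 had a median of 0.30 over the member probe sets, beside 0.21 over all probe sets, and CONTROL_421 lay above CONTROL_406 in 38 of the 66 (57.6%, background 52.3%). The absolute difference between genotypes, which is between means and so steadier than a gap between single arrays, had a median of 0.17 in members, beside 0.16 in all. The genotype difference exceeded the control gap in 21 of the 66 probe sets (31.8%, background 39.9%). All 3 HNF4 null arrays lay above both control arrays in 8 probe sets (12.1%, background 12.0%), of Bst2, Gbp3, Irf1, Mx1, Rtp4, Usp18 and 2 of the 4 probe sets of Irf3. They lay below both in 4 (6.06%, background 11.6%), of Ifitm1, Oas1a, Irf8 and a dim probe set of H2-D1. Against each control colon taken alone, the mean of the HNF4 null colons fell on the same side in 35 of the 66 (53.0%, background 62.0%), so for the other probe sets the sign of the difference depended on which control was used. Of 13 genes with several probe sets, 8 had probe sets of both signs.

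**Figure D1:**
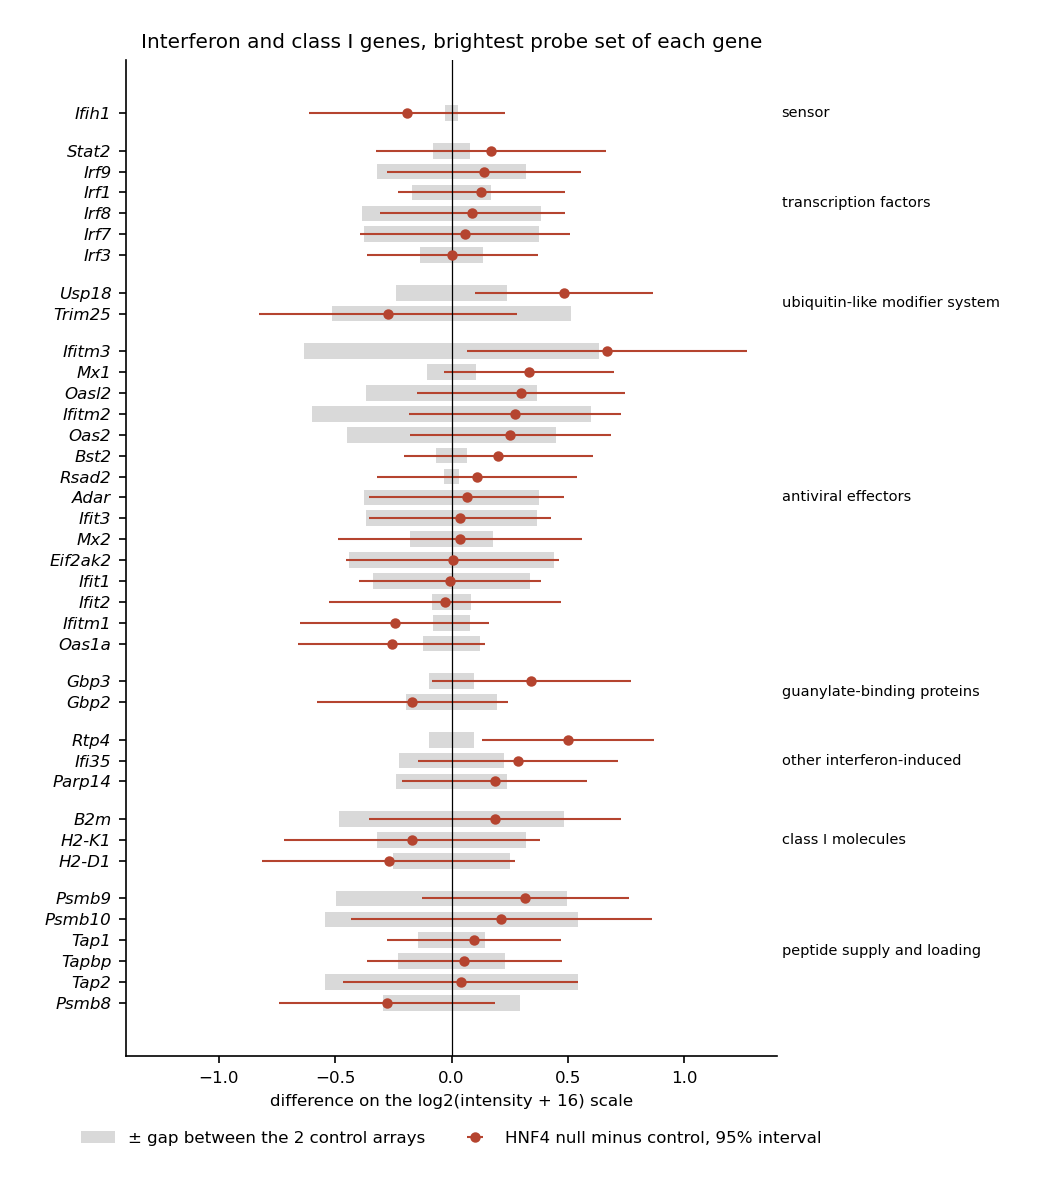
Difference between HNF4 null and control colons (points, with 95% intervals from limma) for the brightest probe set of each of 38 genes, on the log2(intensity + 16) scale and grouped by role, with grey bars of plus and minus the gap between the 2 control arrays. Usp18 and Rtp4 lie beyond their grey bars, at 0.48 and 0.50, as do Mx1, Gbp3, Bst2, Ifi35, Stat2 and Rsad2. Ifih1, Ifitm1 and Oas1a lie beyond theirs on the negative side, and Ifitm3 and H2-D1 lie at the edge of their own.

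**Figure D2:**
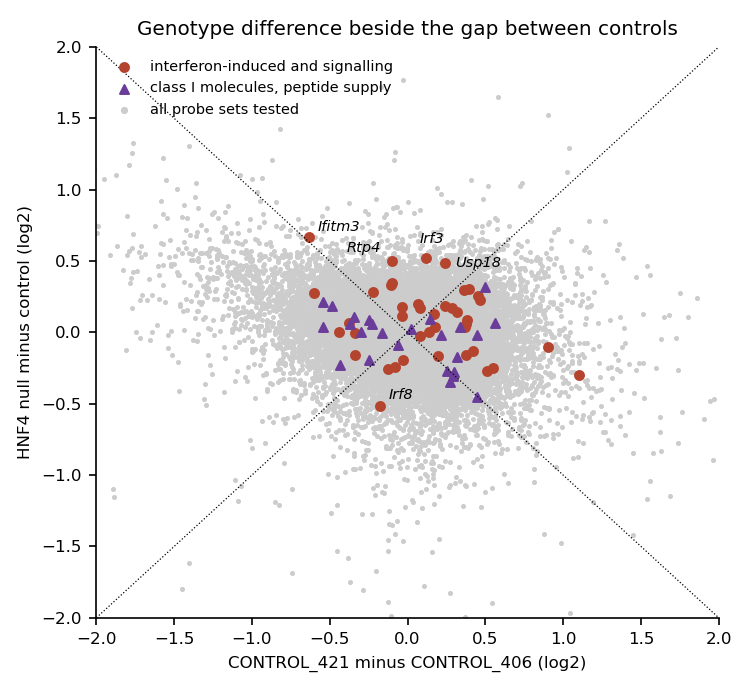
For each probe set, the HNF4 null minus control difference (vertical, log2) against CONTROL_421 minus CONTROL_406 (horizontal, log2), with members in colour over all probe sets in grey, and dotted lines where the sizes are equal. Both axes use the control arrays, and 62 probe sets lie outside the axes. The members lie within the grey cloud, and of the 5 labelled genes Ifitm3 has the largest gap between controls.

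Ifih1, which encodes the cytosolic double-stranded RNA sensor MDA5, was the only sensor in the set. It read 90.5, 98.1 and 72.4 in HNF4 null colons, against 100 and 91.35 in control colons, with overlapping groups and a difference of -0.19 ± 0.19 (SE, limma adjusted p = 0.838).

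The 6 transcription factor genes were measured by 11 probe sets with a median difference of 0.09. Irf8, a factor of myeloid and B cell development, was measured by 2 probe sets that differed in sign. By the dimmer it read 121, 119.5 and 125 in HNF4 null colons, against 193 and 161 in control colons. All 3 null values lay within a narrow band below both controls, and the difference was -0.51 ± 0.16 (SE, 95% interval -0.87 to -0.15, unadjusted p = 0.0101, limma adjusted p = 0.578). By the brighter it read 177, 172 and 189 in HNF4 null colons, against 145 and 187 in control colons, and differed by 0.09 ± 0.18 (SE, limma adjusted p = 0.922), and the groups overlapped. The 18 measured markers of macrophages and other myeloid cells had a median difference of -0.04 and summed intensities of 2029 to 2349 in HNF4 null and 2175 to 2468 in control colons. Among them Fcgr3 differed by -0.60, Cd14 by -0.61 and S100a8 by 0.46, each at an unadjusted p under 0.05 (limma adjusted p from 0.504 to 0.643). Over all genes, 2.62% were higher and 4.28% lower at that level. Of 12 lymphocyte markers, with a median of 0.01, only Cd4 reached it, at -0.66 (limma adjusted p = 0.368). Of the markers in all lists, only Lyve1, listed with endothelium, passed limma's threshold, at -1.83 (adjusted p = 0.0271). The B cell markers Cd79a, Cd79b and Ms4a1 differed by -0.29, 0.04 and 0.38 (limma adjusted p from 0.734 to 0.965). Ptprc (CD45) read 34.4 to 43.5 in HNF4 null and 32.9 to 47.1 in control colons, and the part of such cells in the Irf8 values was not tested.

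Irf3, a constitutively expressed factor that is phosphorylated after viral sensing, was measured by 4 probe sets. The dimmest of them read 86.0, 71.5 and 78.3 in HNF4 null colons, against 46.3 and 46.0 in control colons, which did not overlap. The difference was 0.52 ± 0.17 (SE, 95% interval 0.15 to 0.90, unadjusted p = 0.0113, limma adjusted p = 0.578). The brightest read 346, 359 and 301 in HNF4 null colons, against 328 and 346 in control colons, and differed by 0.0042 ± 0.16 (SE), so the probe sets of this gene did not show the same size of difference. The other 2 differed by -0.16 and 0.18.

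Of the remaining factors, Irf1, Irf7, Irf9 and Stat2 differed little. Irf1, an interferon gamma-inducible activator of class I genes, read 374, 396 and 362 in HNF4 null colons, against 336 and 364 in control colons, and differed by 0.13 ± 0.16 (SE). Its groups overlapped in the deposited intensities and were apart only after normalisation. Irf7, which amplifies type I interferon production, differed by 0.06 ± 0.20 and Irf9, a DNA-binding partner of STAT2, by 0.14 ± 0.19 (SE). Stat2 differed by 0.17 by its brighter probe set and by -0.16 by the dimmer.

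Usp18, the protease that removes ISG15 from proteins and restrains type I interferon signalling, read 60.4, 52.1 and 68.3 in HNF4 null colons, against 33.4 and 37.0 in control colons. The groups did not overlap, and the difference was 0.48 ± 0.17 (SE, 95% interval 0.10 to 0.87, unadjusted p = 0.0185, limma adjusted p = 0.616). Both control values lay under 41.3, the median intensity of the probe sets for bacterial control transcripts, so this separation was read near background. Trim25, a ubiquitin ligase that activates the sensor RIG-I, read 251, 293 and 170.5 in HNF4 null colons, against 238 and 334 in control colons, by its brightest probe set. Its difference was -0.27 ± 0.25 (SE), and null_426 was lowest and CONTROL_421 highest. The other 2 probe sets of Trim25 differed by -0.25 and -0.13, and CONTROL_421 was highest of the 5 arrays in all 3.

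Among antiviral effectors, the 3 Ifitm genes, which encode small membrane proteins that block virus entry and lie together on chromosome 7, did not differ alike. Ifitm3 read 1393, 1046 and 732 in HNF4 null colons, against 866 and 524 in control colons. The null_426 value lay between the controls, and the difference of 0.67 ± 0.27 (SE, 95% interval 0.06 to 1.27, unadjusted p = 0.0335, limma adjusted p = 0.668) was the highest of the set. It was 0.35 against CONTROL_406 alone and 0.99 against CONTROL_421 alone, beside a gap of -0.63 between the controls. Ifitm2 read 1347, 1586 and 1320 in HNF4 null colons, against 1568 and 995 in control colons, and differed by 0.27 ± 0.20 (SE), which was -0.03 against CONTROL_406 alone and 0.57 against CONTROL_421 alone. Ifitm1 read 442, 523 and 359 in HNF4 null colons, against 557 and 511 in control colons, and its difference was -0.24 ± 0.18 (SE) after a normalisation that placed all 3 null arrays below both controls, although null_60 overlapped CONTROL_421 in the deposited intensities.

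Many of the other effectors were dim. Over the 18 probe sets of 15 effector genes the median difference was 0.09, with 13 positive. Bst2, which encodes tetherin, a protein that holds budding virus at the cell surface, read 171, 129.7 and 133 in HNF4 null colons, against 119 and 118 in control colons, and differed by 0.20 ± 0.18 (SE, limma adjusted p = 0.825) with no overlap. Mx1 read 25.0, 31.4 and 35.4 in HNF4 null colons, against 21.96 and 15.6 in control colons, and differed by 0.33 ± 0.16 (SE, limma adjusted p = 0.728). Mx1 and Mx2 encode GTPases that block viral replication, and RefSeq annotates both as transcribed pseudogenes in the C57BL/6J reference assembly. Mx2 differed by 0.04.

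The 2′-5′ oligoadenylate synthetase genes, whose products activate RNase L, had both signs. Oas1a read 183, 178 and 143 in HNF4 null colons, against 213 and 186 in control colons, and differed by -0.26 ± 0.18 (SE) with no overlap. Oas2 and Oasl2 differed by 0.25 ± 0.19 and 0.30 ± 0.20 (SE), and in Oasl2 null_60 and null_426 read 70.9 and 73.4, close to CONTROL_421 at 64.9. The RNA-binding genes Ifit1, Ifit2 and Ifit3, among the most strongly interferon-induced genes known, read at most 66.7 in HNF4 null and at most 65.2 in control colons, with differences of -0.0056, -0.03 and 0.04. As a guide to background, 27 probe sets for bacterial control transcripts had a median intensity of 41.3, and 10 of the 66 member probe sets averaged less than that, as did 13.6% of all probe sets. They were those of Ifit1, Ifit2, Mx1, Gbp3 and Psmb9, the dimmer ones of Gbp2 and Rtp4 and 3 of H2-D1, so the differences of these, and the separation of groups in Mx1, Gbp3 and the H2-D1 probe set counted as below, were read near background.

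Rsad2 encodes viperin, an antiviral enzyme that makes a chain-terminating nucleotide, and its 3 probe sets disagreed. The brightest differed by 0.11 and the next by 0.22, while the dimmest read 80.0, 71.2 and 89.6 in HNF4 null colons, against 63.7 and 148 in control colons, and differed by -0.30 ± 0.28 (SE). CONTROL_421 alone was high in it, with a gap of 1.10 between the controls. Eif2ak2, the double-stranded RNA-activated kinase PKR, differed by 0.0048 and 0.17 by its 2 probe sets and Adar, an RNA editing enzyme, by 0.06.

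Rtp4, an interferon-induced gene of the receptor transporter family, read 102, 95.4 and 90.7 in HNF4 null colons, against 64.6 and 53.8 in control colons. The groups did not overlap, the control gap was small at -0.10, and the difference was 0.50 ± 0.16 (SE, 95% interval 0.13 to 0.87, unadjusted p = 0.0131, limma adjusted p = 0.591). A second, very dim probe set of Rtp4 differed by 0.30 ± 0.20 (SE), with null_60 at 11.7 and CONTROL_421 at 10.1. Ifi35 and Parp14, which encode an interferon-induced leucine zipper protein and an ADP-ribosyltransferase, differed by 0.29 ± 0.19 and 0.19 ± 0.18 (SE). Of the guanylate-binding protein genes, whose products attack intracellular pathogens, Gbp3 read 47.1, 37.1 and 31.2 in HNF4 null colons, against 27.6 and 20.9 in control colons, and differed by 0.34 ± 0.19 (SE, limma adjusted p = 0.759) with no overlap. Gbp2 differed by -0.17 and -0.10, and its dimmer probe set read 15.3 in CONTROL_406 and 36.5 in CONTROL_421.

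**Figure D3:**
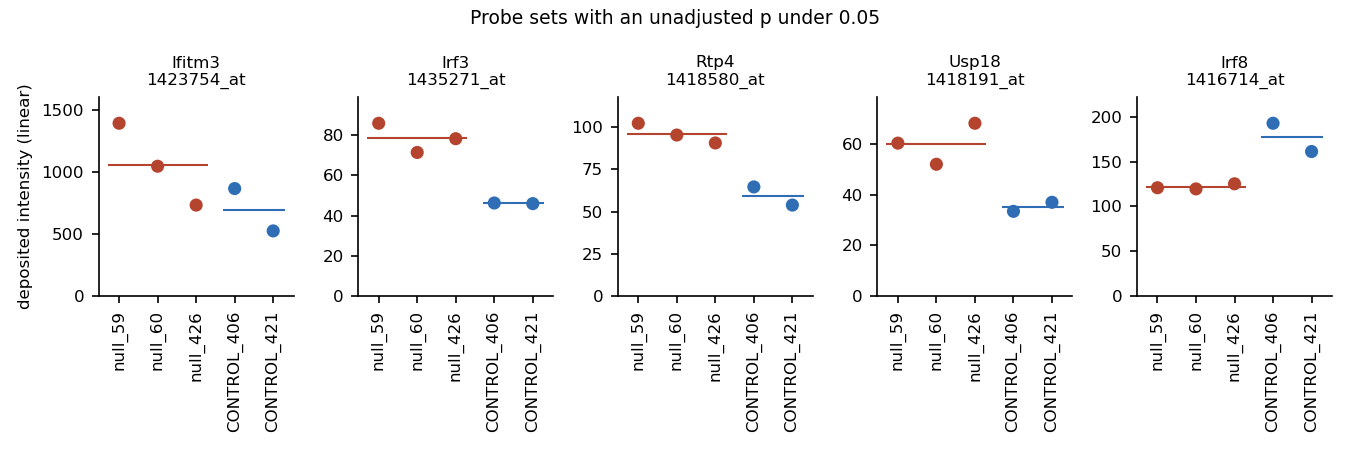
Deposited intensity (linear scale from 0) in each array for the 5 member probe sets with an unadjusted p under 0.05, with horizontal lines at the group means. HNF4 null and control arrays are apart in Irf3, Rtp4, Usp18 and Irf8, and overlap in Ifitm3. The Irf3 and Irf8 probe sets shown are not the brightest of their genes.

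The class I molecules were bright by their leading probe sets, and by those of H2-D1 and H2-K1 the HNF4 null values were spread on both sides of the controls. Over the 15 probe sets of B2m, H2-D1 and H2-K1, the median difference was -0.02. At an unadjusted p under 0.05 by limma there were 0 (background 2.82% higher and 4.33% lower). B2m, the invariant light chain, read 1282, 917 and 738 in HNF4 null colons, against 1071 and 730 in control colons by its brighter probe set, where genotypes differed by 0.19 ± 0.24 (SE). By the dimmer it read 710, 593 and 402 in HNF4 null colons, against 814 and 568 in control colons, and differed by -0.23 ± 0.24 (SE). In both, null_59 was the highest and null_426 the lowest of the null arrays, and CONTROL_406 lay above CONTROL_421.

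H2-D1, a classical class I heavy chain, read 2078, 1389 and 1064 in HNF4 null colons, against 1715 and 1939 in control colons, by its brightest probe set. Its difference was -0.27 ± 0.24 (SE, limma adjusted p = 0.824), with null_59 above and null_60 and null_426 below both controls. H2-K1, the other heavy chain, read 1731, 1132 and 912 in HNF4 null colons, against 1313 and 1577 in control colons, and differed by -0.17 ± 0.24 (SE) with the same placing of arrays. Of the 13 probe sets of these 2 genes, 11 have the suffix _x_at, which the array maker gives to probe sets with probes that can match other transcripts, so H2-D1, H2-K1 and related class I genes may share signal and these probe sets are not independent.

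The placing of the null arrays was shared across the class I molecules. In 13 of the 15 probe sets (86.7%) null_59 was the highest of the 3 null arrays, as it was in 27.3% of all probe sets tested, and in 11 of the 15 (73.3%) null_426 was the lowest, as in 36.9% of all. As a median deviation from the mean of the 5 arrays, the class I molecules stood at 0.32 in null_59, -0.17 in null_60 and -0.29 in null_426, against 0.05 in CONTROL_406 and 0.12 in CONTROL_421. Among the 8 probe sets of H2-D1 and H2-K1 whose mean reached the median of all probe sets, null_59 read from 1.07 to 2.68 times as much as null_426. Without null_59, 3 probe sets of H2-D1, which may share signal, were lower at an unadjusted limma p under 0.05, as were 3.25% of all probe sets. Their differences were -0.50 to -0.80 (limma adjusted p from 0.895 to 0.984). Since null_59 was the highest null array in these 3, leaving it out was bound to lower their differences. The genes of peptide supply and loading had null_59 highest of the null arrays in 5 of 10 probe sets, with median deviations of 0.17 in null_59 and -0.10 in null_426, against 0.08 in CONTROL_406 and -0.03 in CONTROL_421. The remaining members, interferon-induced and signalling genes, had null_59 highest in 19 of 41 (46.3%), with a median deviation of 0.04 in null_59, 0.02 in null_426, against -0.13 in CONTROL_406 and 0.04 in CONTROL_421. These placings were noticed in the values and are given as a description with no test.

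**Figure D4:**
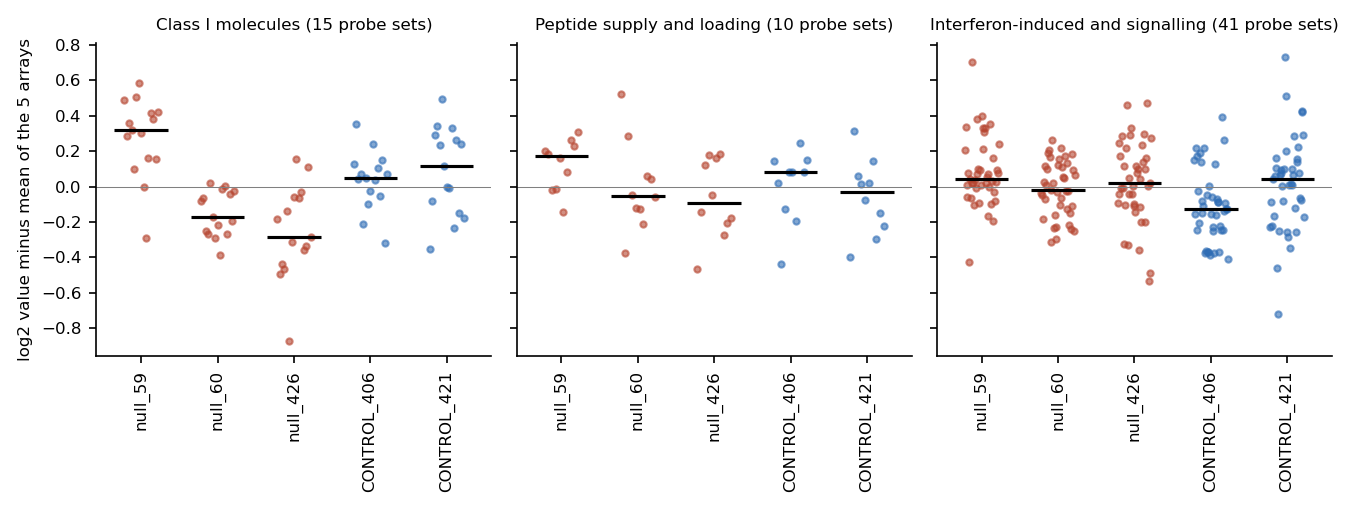
Log2 value of each member probe set minus its mean over the 5 arrays, by array, for class I molecules, for genes of peptide supply and loading and for the interferon-induced and signalling genes, with black lines at the medians. Class I molecules stand high in null_59 and low in null_426, with the control arrays between, and the third panel shows no such separation.

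Genes that supply and load peptides differed little. Their 10 probe sets had a median difference of 0.05, and 0 had an unadjusted p under 0.05 by limma (background 2.82% higher and 4.33% lower). In 0 of them were the groups apart after normalisation (background 12.0% above and 11.6% below). Psmb8, an immunoproteasome subunit, read 74.9, 46.0 and 61.8 in HNF4 null colons, against 65.3 and 77.8 in control colons, and differed by -0.28 ± 0.21 (SE). The other immunoproteasome subunits, Psmb9 and Psmb10, differed by 0.32 ± 0.20 and 0.21 ± 0.29 (SE), opposite in sign to Psmb8, and Psmb10 read from 75.5 to 156 among null colons. Tap2, a subunit of the peptide transporter, read 61.8, 51.8 and 42.1 in HNF4 null colons, against 61.5 and 32.4 in control colons, so its controls enclosed all null values but null_59. The 4 probe sets of Tap1, its partner, differed by -0.09 to 0.10, and the 2 of Tapbp (tapasin) by 0.06 each. The constitutive proteasome subunits that the immunoproteasome ones replace, Psmb5, Psmb6 and Psmb7, differed by 0.23, 0.19 and 0.41 (limma adjusted p from 0.792 to 0.832), and CONTROL_421 was lowest in all 3, with Psmb7 at 375 in it and 951 in CONTROL_406.

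Members were also described by whether a promoter window held the response element core, with no test between them. The 13 measured genes with it had 19 probe sets and a median difference of 0.04, from -0.30 to 0.67. The 18 measured genes with a window but no core had 39 probe sets and a median of 0.0047, from -0.51 to 0.52. Of those 39, 13 were the H2-D1 and H2-K1 probe sets, which may share signal. By the brightest probe set of each gene, the medians were 0.11 with the core and 0.06 without it.

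The rest of the pathway was read from lists of other genes, by each gene's brightest probe set, and 0 of its 95 genes passed limma's threshold (background 0.137% of genes). At an unadjusted p under 0.05, 4 were higher (4.21%, background 2.62%) and 9 lower (9.47%, background 4.28%). Over all genes 53.6% had a positive difference, beside which the signs of each list may be read. Of 10 interferon ligand and receptor genes, 5 were positive and 5 negative. Ifngr1, a chain of the interferon gamma receptor, read 286, 244 and 235 in HNF4 null colons, against 418 and 324 in control colons, and differed by -0.50 ± 0.18 (SE, unadjusted p = 0.0214, limma adjusted p = 0.633) with no overlap. Ifnar2, a chain of the type I receptor, differed by -0.42 ± 0.20 (SE, limma adjusted p = 0.723), also with all null arrays below both controls. Of 11 signalling genes, 6 were positive, and the repressor Irf2 (-0.39) and the feedback inhibitor Socs1 (-0.27) had the smallest p. Of 11 nucleic acid sensing genes 9 were negative, with Tlr7, an endosomal RNA receptor, at -0.50 and Mavs, the adaptor of RNA sensors, at -0.61 (limma adjusted p = 0.648 and 0.695).

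Of 34 other interferon-induced genes, 23 were positive, and the 2 genes with the smallest p differed in sign. Cmpk2, a mitochondrial nucleotide kinase that neighbours Rsad2, read 82.3, 92.8 and 77.9 in HNF4 null colons, against 134 and 135 in control colons, and differed by -0.64 ± 0.17 (SE, limma adjusted p = 0.432). Cxcl9, a chemokine induced by interferon gamma, read 35.4, 28.1 and 66.2 in HNF4 null colons, against 18.9 and 10.2 in control colons, and differed by 0.83 ± 0.24 (SE, limma adjusted p = 0.536), and neither gene's groups overlapped. Both Cxcl9 control values, and 2 of its 3 null values, lay under 41.3, near background. Named after its values were seen, Ifi27l2a read 93.2, 50.2 and 23.3 in HNF4 null colons, against 22.5 and 2.78 in control colons, with null_59 highest and CONTROL_421 lowest as in Ifitm3, and differed by 1.20 ± 0.41 (SE, limma adjusted p = 0.607). Its control values and that of null_426 were likewise under 41.3. Also named after the values were seen, the other genes of this list at an unadjusted limma p under 0.05 had both signs. Ifi30 read 614, 723 and 539 in HNF4 null colons, against 948 and 1013 in control colons, and differed by -0.56 ± 0.17 (SE, limma adjusted p = 0.554). Plscr1 differed by -0.52, Trim30a by 0.43 and Ifi47 by 0.42 (limma adjusted p from 0.6435 to 0.691), and in none of these genes did the groups overlap. Of 16 other class I pathway genes 8 were positive, with Psme1, an interferon-inducible proteasome activator subunit, at 0.38 ± 0.19 (SE) and no overlap, and the very dim H2-Q2 at -0.73 ± 0.23 (SE, limma adjusted p = 0.578). Of 10 class II presentation genes 7 were negative, with Ctss, the protease that trims the invariant chain, at -0.94 ± 0.25 (SE, limma adjusted p = 0.437) and H2-Oa at 0.42 ± 0.21 (SE).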

How the data were processed

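Total RNA was extracted (Qiagen RNeasy mini) and hybridised to Affymetrix arrays by the maker's procedure, per the labels' protocols. The deposited values are linear intensities, 1 for each probe set on each of 5 arrays. The summarising software, scaling and background step are not given in the sources used here, and some values lay below 0. Of 22690 rows, 64 control probe sets were left out and 22626 tested. A platform annotation of 2016 named 20380 by 1 symbol and 691 by several, and 1555 were unnamed. By gene ID, 20351 matched RefSeq (GRCm38.p6), which changed 0 symbols. No detection calls were used, and the number of arrays limits the precision.

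Values below 0 were set to 0 and taken as log2(intensity + 16). Array medians spread by 0.114, above a limit of 0.1, so arrays were quantile normalised. HNF4 null was compared with control in a two-sided moderated fit without covariates (lmFit, then eBayes, of limma 3.58.1 under R 4.3.3, 9.33 degrees of freedom in total), adjusted by Benjamini and Hochberg over all probe sets. The scripts were tested on simulated data. Probe sets of a gene are given separately, and the brightest by mean represents a gene where said. Described in full were members with an unadjusted p under 0.05, the 3 highest, the 3 lowest and the 3 with the largest control gap by brightest probe set, and 2 genes of smallest p per other list. Further members follow by role. Members, lists and rules were chosen with earlier results of these data known.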

Additional observations from a re-analysis of the deposited data

How the results depend on the processing

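No paired analysis was possible because the HNF4 null and control colons share no replicate number. As in the reported fit, where 4 were higher and 1 lower at an unadjusted p under 0.05, the count of member probe sets past limma's threshold was 0 in every alternative run: no or median scaling, pseudocounts 1 and 64, a filter on dim probe sets, a variance trend (plain and robust), array weights and each array left out. The smallest adjusted p of a member was 0.189 there (Rsad2 without CONTROL_406). At an unadjusted limma p under 0.05, 1 of the 31 member probe sets left was higher under the dim filter (2.90% of all). With array weights, 8 of the 66 member probe sets were higher and 2 lower, beside 4.86% and 6.16% of all probe sets. The shares of all were 2.82% and 4.33% in the reported fit. These weights were 3.65 for null_59 and 0.594 to 0.837 for the others. With 1 array left out, 0 to 5 were higher and 1 to 4 lower, with 0 higher and 4 lower without null_59 (1.71% and 3.25% of all) and 3 higher and 2 lower without CONTROL_406 (5.16% and 4.93% of all). Member probe sets with all null arrays above both controls numbered 14 of the 66 in the table as deposited, beside 14.6% of all probe sets. Without dim ones they numbered 2 of the 31, beside 12.6% of all. With 1 array left out they numbered 10 to 24 of the 66, against 17.3% to 28.7% of all, since fewer arrays separate more often. Those below numbered 6 to 17, against 15.7% to 27.0% of all. The members' median difference ranged from -0.02 (without null_59) to 0.11 (array weights). The H2-D1 difference by its brightest probe set was 0.022 with array weights, that of Ifitm2 was -0.025 without CONTROL_421 and 0.57 without CONTROL_406, and that of Tap2 was -0.08 without null_59, -0.23 without CONTROL_421 and 0.31 without CONTROL_406. The cause was not tested. Without CONTROL_421 Ifitm3 differed by 0.35 and without CONTROL_406 by 0.98, while the unadjusted p of Ifitm3, Usp18, Rtp4, the Irf3 probe set and the Irf8 probe set reached 0.279, 0.125, 0.0677, 0.0612 and 0.0700 in the alternatives. A lone control was taken to vary as the null arrays do.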
